A study of Mus musculus with 35 samples.

Results

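The Kruppel-like factors described here are 10 genes, Klf2, Klf3, Klf4, Klf5, Klf6, Klf7, Klf9, Klf10, Klf13 and Klf16, chosen by gene symbol from the 44853 genes of a table that follows mouse embryonic stem (ES) cells as GATA6 turns them towards primitive endoderm (PrE). All 10 were found there, each on a single row, and all 10 passed the minimum of 1 TPM (a gene's share of all transcripts, corrected for gene length). A second table, of 6275 genes that the study called responsive to GATA6, measured with a control siRNA or one that lowers Oct4, held 6 of the 10. These 6 were Klf2, Klf3, Klf5, Klf6, Klf7 and Klf10.

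The ES cells were of the KH2 line, a C57BL/6 x 129/Sv hybrid, with a cassette that expresses HA-tagged GATA6 when doxycycline (Dox) is given. They were grown in serum and LIF on mitotically inactive fibroblasts, and sampled without Dox (0 h) or after 16, 24, 48, 72, 96 or 168 h with 1 µg/mL Dox, in 3 libraries a group. XEN cells, 2 libraries of the wild-type CD1 line X10, were grown without LIF and without Dox, so that a XEN difference from the other groups is also one of strain, line and medium. In the second experiment cells of 1 inducible clone received a non-targeting siRNA (siCTL, 6 libraries) or one targeting Oct4, whose gene is Pou5f1 (siOct4, 6 libraries), at the start of 48 h of Dox, so that all 12 of these libraries express the GATA6 transgene. All are cultured cells, and in the inducible ones GATA6 expression is started by Dox. XEN cells express Gata6 without Dox (346 ± 7.84 TPM, SD, n = 2). Bulk RNA cannot tell fewer cells of a type from less RNA per cell.

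Kruppel-like factors are transcription factors that share a C-terminal block of zinc fingers, with which they bind GC-rich DNA and CACCC boxes, and they differ in the N-terminal parts that recruit activators or repressors. KLF2, KLF4 and KLF5 are known from mouse ES cells, where they overlap in function and sustain the naive pluripotency network: Klf4 is a target of LIF and STAT3, KLF2 protein is lowered by MEK/ERK signalling, and KLF5 acts in the inner cell mass and trophectoderm of the blastocyst. KLF3 is a repressor that recruits CtBP proteins. KLF9, KLF10, KLF13 and KLF16 bind the SIN3A corepressor, while KLF6 and KLF7 form a pair of closely related, mainly activating members.

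The ES and PrE labels were checked first. The summed level of 6 ES markers ran from 3230 to 3380 TPM at 0 h, from 76.6 to 157 TPM at 168 h and from 3.51 to 4.15 TPM in XEN cells. The sum of 8 markers of PrE and XEN cells ran from 40.9 to 54.7 TPM at 0 h, from 13452 to 14135 TPM at 168 h and from 6226 to 6238 TPM in XEN cells. TPM keep no record of read numbers, so the depth is unknown, and each library of the first table had 12034 to 13109 genes at 1 TPM or more. One library stood apart, replicate 3 at 72 h, with Pearson correlations across genes of 0.970 and 0.972 to its group, against 0.990 between the other two. In the siRNA table replicates 3 and 4 of siCTL stood apart, with correlations from 0.929 to 0.952 and from 0.934 to 0.956, while 1 with 2 and 5 with 6 reached 0.990.

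The windows of 250 bases before the RefSeq transcription start (GRCm38.p6) are shown for the member that fell most, Klf2, for the repressor Klf3, and for the member that rose most, Klf6, because the family binds such GC-rich sequence itself. Entries were found for 7 of 10 members, Klf2, Klf3, Klf4, Klf6, Klf7, Klf9 and Klf13. Capitals mark 3 motifs, each searched on both strands: the GC box GGGCGGG, the CACCC box CCACCC, and CCAAT, the box known to bind NF-Y. The windows lie on the plus strand at chr8:72318812-72319061 for Klf2, chr5:64803271-64803520 for Klf3 and chr13:5861239-5861488 for Klf6.
Klf2: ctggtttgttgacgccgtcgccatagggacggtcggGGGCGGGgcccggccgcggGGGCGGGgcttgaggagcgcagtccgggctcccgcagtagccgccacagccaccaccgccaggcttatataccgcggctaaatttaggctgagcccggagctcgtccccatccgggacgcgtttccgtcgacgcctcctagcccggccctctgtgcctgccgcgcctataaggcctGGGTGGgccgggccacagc
Klf3: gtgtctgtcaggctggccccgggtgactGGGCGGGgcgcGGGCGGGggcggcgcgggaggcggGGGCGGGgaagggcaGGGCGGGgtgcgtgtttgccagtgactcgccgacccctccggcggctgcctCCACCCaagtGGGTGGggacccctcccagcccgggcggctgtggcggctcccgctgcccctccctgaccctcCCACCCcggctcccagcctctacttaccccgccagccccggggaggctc
Klf6: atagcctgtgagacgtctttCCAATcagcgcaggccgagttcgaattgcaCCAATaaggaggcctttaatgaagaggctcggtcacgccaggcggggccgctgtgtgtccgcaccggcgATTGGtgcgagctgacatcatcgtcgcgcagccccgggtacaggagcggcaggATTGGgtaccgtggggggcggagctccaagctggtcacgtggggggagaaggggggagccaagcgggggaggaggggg

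The windows of Klf2 and Klf3 held 2 and 4 GC boxes and 1 and 3 CACCC boxes, and no CCAAT. That of Klf6 held 4 CCAAT boxes over both strands, and neither a GC box nor a CACCC box. Klf4 had 4 GC boxes, of which the first pair overlapped, Klf13 had 2 GC boxes with 1 CACCC box that overlapped the second of them and 2 CCAAT, Klf7 had 3 CACCC boxes, and Klf9 had 3 CCAAT, of which 2 overlapped. Of all 32851 windows of this length, 23.4% held the GC box, 28.1% the CACCC box and 33.9% the CCAAT box. The letters AGATAA, a site of GATA factors, were in none of the 7 windows and in 9.99% of all windows. The median GC content was 71.2% over the 7 windows and 52.4% over all. These are matches of letters, not measured sites.

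Before Dox the 10 members spanned a wide range of levels, and the order was remade by 168 h. At 0 h Klf2 was highest with 199 ± 18.9 TPM (SD, n = 3), above 95.4% of the tested genes, followed by Klf5 with 107 ± 10.6 TPM, Klf4 with 75.6 ± 2.02 TPM, Klf9 with 60.8 ± 6.75 TPM and Klf3 with 52.3 ± 9.61 TPM. Klf10, Klf16, Klf6, Klf13 and Klf7 followed at 34.9, 33.3, 15.4, 14.3 and 2.69 TPM. Neighbours whose libraries overlapped were Klf9 and Klf3, Klf10 and Klf16, and Klf6 and Klf13. At 168 h Klf6 led with 230 ± 19.9 TPM (SD, n = 3), above 95.6% of the tested genes, Klf5 with 146 ± 18.3 TPM and Klf4 with 133 ± 2.64 TPM overlapped in their libraries, and Klf2 had moved from first to eighth place.

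**Figure D1:**
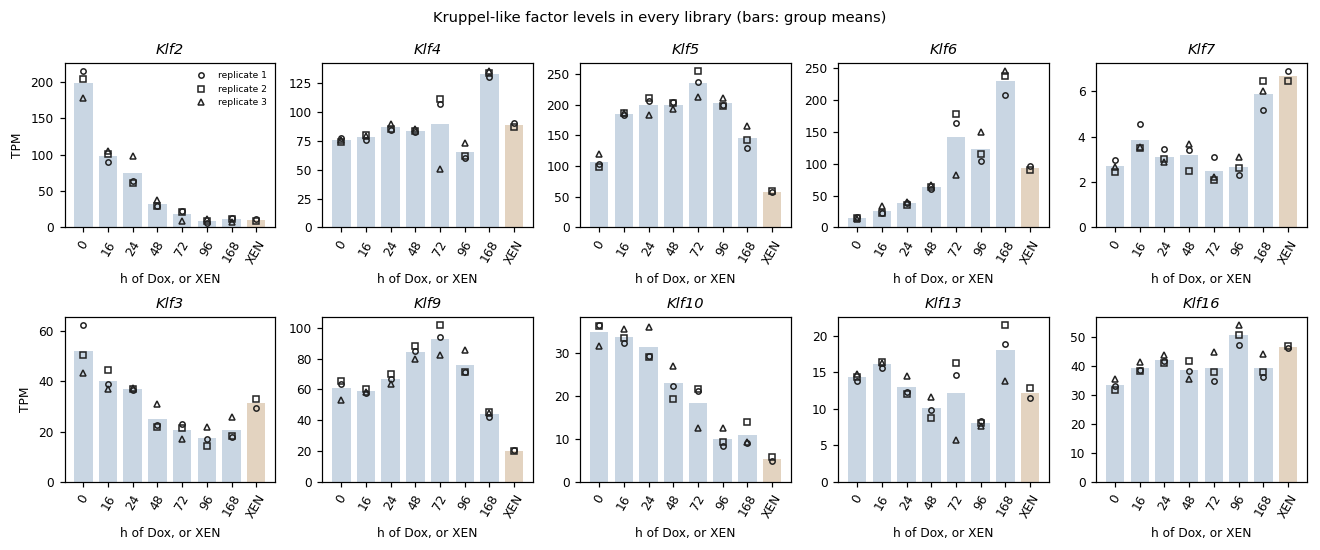
Level of each member in TPM (linear axes from 0, each with its own scale) at 0 to 168 h of Dox and in XEN cells. Bars are group means and symbols single libraries (n = 3, XEN n = 2); Klf2 falls from 199 to 11.1 TPM between 0 and 168 h and Klf6 rises from 15.4 to 230 TPM, and at 72 h the triangle of replicate 3 lies lowest for 8 of 10 members.

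The summed level of the 10 members had group means between 563 and 669 TPM before and during Dox, while its make-up turned over. The sum was 595 ± 28.7 TPM before Dox, 563 ± 7.18 TPM after 48 h of it and 659 ± 45.1 TPM after 168 h (SD, n = 3), and XEN cells had 372 ± 2.40 TPM (SD, n = 2). Klf2 made up 33.4% of the sum at 0 h, 5.73% at 48 h, 1.71% at 168 h and 2.62% in XEN cells. Klf6 went the other way, with 2.59%, 11.3%, 34.9% and 25.1% in those groups. Klf5 took the largest share in between, 31.9% at 16 h and 36.0% at 96 h, from 18.0% at 0 h, and returned to 22.1% at 168 h. Shares of a sum are tied to each other, so that a fall of one raises the rest, and they are given as a description.

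**Figure D2:**
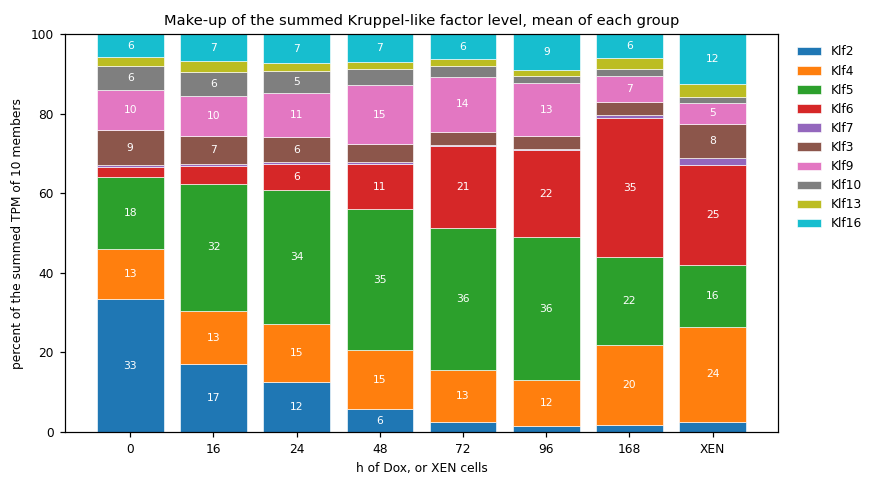
Share of each member in the summed TPM of the 10 members (percent, mean of the libraries of a group) at each time of Dox and in XEN cells; numbers are rounded percentages of at least 5. The Klf2 block shrinks from 33.4% at 0 h to 1.71% at 168 h, the Klf6 block widens from 2.59% to 34.9%, and Klf5 is the widest block from 16 to 96 h.

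Among the members with a known part in naive pluripotency, Klf2 fell at every time of Dox. Its libraries were at 215, 204 and 178 TPM at 0 h, at 90.4, 101 and 105 TPM at 16 h, and at 63.4, 61.4 and 97.9 TPM at 24 h. They reached 28.9, 30.0 and 38.1 TPM at 48 h, 22.6, 21.8 and 9.35 TPM at 72 h and 5.86, 8.38 and 11.2 TPM at 96 h. No library with Dox reached the lowest at 0 h, and the fall was largely complete at 96 h, with 13.4, 11.7 and 8.20 TPM at 168 h. On the log2(TPM + 1) scale, on which all differences below are given, limma put the change from 0 h at -1.0 ± 0.27 (SE) by 16 h (adjusted p = 0.0172), at -2.59 ± 0.27 by 48 h (adjusted p = 1.43e-07) and at -4.06 ± 0.27 by 168 h (adjusted p = 6.41e-11). The first of these sat at the minimum of 1 set for a call and rested on single libraries: the adjusted p was 0.0646 without replicate 1 of 0 h, 0.0571 without replicate 2 of 0 h and 0.0644 without replicate 1 of 16 h.

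Klf4 changed little through the first 2 days, while Klf2 fell. Its libraries stood at 77.7, 73.7 and 75.5 TPM at 0 h, at 84.4, 85.6 and 89.7 TPM at 24 h, and at 82.3, 83.3 and 84.9 TPM at 48 h. All libraries of 24 and 48 h thus lay above all of 0 h. The difference at 48 h was 0.14, with a 95% interval from -0.23 to 0.52 (adjusted p = 0.532 in limma). That interval rests on a spread shared by all 23 libraries, the wide one at 72 h (SD 33.6 TPM) among them. At 72 h they split into 106, 112 and 50.9 TPM, the low value being from the library that stood apart, and at 96 h they were at 60.4, 62.1 and 73.0 TPM. At 168 h all 3 lay above every earlier library, with 130, 134 and 136 TPM. That difference passed the adjusted p (0.81 ± 0.18 against 0 h, adjusted p = 0.000441) but not the minimum of 1, while the step from 96 to 168 h passed both (1.03 ± 0.18, adjusted p = 0.000144). The step fell short of the minimum at 0.97 without replicate 1 of 96 h and at 0.99 without replicate 2 of 96 h. XEN cells had 90.1 and 86.7 TPM, a difference from 0 h of 0.22 with an interval from -0.20 to 0.64.

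Klf5 was higher from 16 h on and lower again, though not back at its first level, at 168 h. Its libraries went from 103, 98.9 and 119 TPM at 0 h to 182, 186 and 187 TPM at 16 h, without overlap, and stayed between 182 and 255 TPM up to 96 h. The highest values, 238, 255 and 213 TPM, were at 72 h, the single time at which the change passed the minimum (1.13 ± 0.09, adjusted p = 1.08e-09). At 16 h it was 0.79 ± 0.09 (adjusted p = 2.66e-06), and at 24, 48 and 96 h it was 0.90, 0.90 and 0.92 with adjusted p of at most 2.34e-07, all under the minimum of 1. From 96 to 168 h the level came down to 129, 143 and 165 TPM (-0.48 ± 0.09, adjusted p = 0.000211), still above every library of 0 h (0.44 ± 0.09, adjusted p = 0.000144). XEN cells had 57.1 and 59.6 TPM, lower than every other library, with a difference of -0.86 ± 0.10 from 0 h (adjusted p = 1.75e-07) and of -1.30 ± 0.10 from 168 h (adjusted p = 3.03e-09).

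Klf6, which is known as an early response gene in many cell types, was higher from 16 h on and was called from 24 h on. It was at 16.7, 15.5 and 14.0 TPM at 0 h, at 22.3, 22.4 and 33.4 TPM at 16 h, and at 38.3, 35.2 and 39.5 TPM at 24 h, so that each group lay above the one before it. At 48 h the libraries reached 60.9, 63.6 and 67.0 TPM. They spread to 165, 177 and 82.0 TPM at 72 h and to 105, 116 and 150 TPM at 96 h, which overlapped. At 168 h they were at 208, 238 and 246 TPM, and XEN cells were between, at 95.7 and 90.7 TPM. Against 0 h the change was 0.70 ± 0.21 at 16 h (adjusted p = 0.0332), under the minimum, 1.24 ± 0.21 at 24 h (adjusted p = 0.000174), 3.04 ± 0.21 at 72 h (adjusted p = 2.44e-10) and 3.82 ± 0.21 at 168 h (adjusted p = 3.94e-12). In XEN cells it was 2.52 ± 0.23 against 0 h (adjusted p = 1.19e-08) and -1.29 ± 0.23 against 168 h (adjusted p = 0.000159). The step from 48 to 72 h was 1.06 ± 0.21 (adjusted p = 0.00101), and 0.91 without replicate 1 and 0.86 without replicate 2 of 72 h, under the minimum. The step from 96 to 168 h was 0.91 ± 0.21 (adjusted p = 0.00185), and passed the minimum with 1.05 without replicate 3 of 96 h.

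Klf7, the relative of Klf6 best known from neurons, stayed low up to 96 h and was higher afterwards. From 0 to 96 h its libraries lay between 2.09 and 4.56 TPM, at 168 h they were at 5.17, 6.45 and 6.03 TPM, and in XEN cells at 6.91 and 6.47 TPM. The groups at 168 h and of XEN cells thus lay above all earlier libraries. The change from 0 h was 0.90 ± 0.14 at 168 h (adjusted p = 9.33e-06), under the minimum, and 1.06 ± 0.16 in XEN cells (adjusted p = 5.34e-06), which was called but fell to 0.95 with the gene length trend removed. At so low a level the added 1 TPM compresses the difference, and with 0.1 TPM added the change at 168 h was 1.10 and was called.

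Summed fibroblast markers were highest at 168 h, when Klf4, Klf6 and Klf7 were high too, but they overlapped with earlier times. The sum of 10 markers was between 38.8 and 116 TPM at 0 h, 81.0 and 148 TPM at 16 h, and 84.2 and 140 TPM at 24 h. It was between 55.1 and 152 TPM at 72 h, between 134 and 290 TPM at 168 h and between 114 and 120 TPM in XEN cells. At 168 h 10 of 10 had a mean of at least 1 TPM, against 7 of 10 at 0 h. Lum was at 0 to 1.05 TPM at 0 h and at 1.83 to 8.98 TPM at 168 h, without overlap. Dcn overlapped, at 0.122 to 1.22 TPM at 0 h and 0.865 to 7.64 TPM at 168 h. Thy1 overlapped as well, at 4.63 to 23.8 TPM at 0 h and 1.20 to 33.0 TPM at 168 h. The study let feeders adhere and lysed the remaining cells, and Col1a1 and Col1a2 are also made by other cells. The part of fibroblasts in the levels of the members was not tested.

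Klf3, the CtBP-recruiting repressor, fell to a lower plateau. Its libraries were at 62.6, 50.8 and 43.5 TPM at 0 h, at 36.5, 36.8 and 37.4 TPM at 24 h, at 22.5, 21.9 and 31.1 TPM at 48 h, and at 16.9, 14.0 and 21.7 TPM at 96 h. At 168 h they were at 17.9, 18.3 and 25.8 TPM, and XEN cells were higher, at 29.6 and 32.9 TPM. The groups from 24 h on lay below all libraries of 0 h. The change from 0 h was -1.03 ± 0.17 at 48 h (adjusted p = 5.01e-05), -1.53 ± 0.17 at 96 h (adjusted p = 2.02e-07) and -1.30 ± 0.17 at 168 h (adjusted p = 1.24e-06), whereas in XEN cells it was -0.71 ± 0.19 (adjusted p = 0.00285), under the minimum. At 48 h the change was under the minimum with -0.89 without replicate 1 of 0 h, -0.96 without replicate 1 of 48 h and -0.94 without replicate 2 of 48 h.

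Of the members that bind SIN3A, Klf10, a gene first described as induced by TGF-beta, fell most. Its libraries stood at 36.6, 36.5 and 31.7 TPM at 0 h and at 32.5, 33.6 and 35.7 TPM at 16 h, when Klf2 had already come down. They were at 22.4, 19.2 and 27.1 TPM at 48 h, at 21.3, 21.6 and 12.4 TPM at 72 h and at 8.40, 9.17 and 12.4 TPM at 96 h. From 48 h on they lay below every library of 0 h. The change passed both thresholds at 96 h (-1.72 ± 0.19, adjusted p = 1.70e-07) and 168 h (-1.63 ± 0.19, adjusted p = 2.66e-07) and was deepest in XEN cells (-2.52 ± 0.21, adjusted p = 3.20e-09), which had 4.80 and 5.70 TPM. At 72 h it was -0.92 ± 0.19 (adjusted p = 0.000320), and passed the minimum with -1.04 without replicate 1 and -1.05 without replicate 2 of 72 h.

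Klf9, known as a gene induced by glucocorticoid and thyroid hormone, was higher in the middle of the course and lower at its end. It had 63.8, 65.6 and 53.1 TPM at 0 h, 84.8, 87.9 and 79.9 TPM at 48 h, 93.9, 102 and 82.2 TPM at 72 h and 42.0, 45.5 and 44.5 TPM at 168 h. XEN cells had 20.4 and 19.9 TPM. The levels at 48 and 72 h lay above, and those at 168 h and of XEN cells below, all libraries of 0 h. Against 0 h the change was 0.60 ± 0.09 at 72 h (adjusted p = 8.12e-06) and -0.45 ± 0.09 at 168 h (adjusted p = 0.000140), both under the minimum, and -1.54 ± 0.10 in XEN cells (adjusted p = 5.74e-11). XEN cells were also below 168 h, by -1.09 ± 0.10 (adjusted p = 5.09e-08).

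Klf13 and Klf16 had the smallest of the members' largest differences from 0 h. Klf13, first studied as a regulator of a chemokine gene in T cells, was at 13.8, 14.4 and 14.7 TPM at 0 h, at 8.27, 8.04 and 7.62 TPM at 96 h and at 18.9, 21.5 and 13.8 TPM at 168 h. It was not called against 0 h at any time (96 h, -0.77 ± 0.24, adjusted p = 0.00747), but was called in the step from 96 to 168 h (1.07 ± 0.24, adjusted p = 0.00128), which dropped to 0.94 without replicate 2 of 168 h. At 72 h the library that stood apart had 5.67 TPM of Klf13, against 14.6 and 16.3 TPM in the others. Klf16 lay between 31.7 and 54.0 TPM in all 23 libraries, and its largest difference from 0 h was 0.58 ± 0.09 at 96 h (adjusted p = 1.34e-05), under the minimum of 1.

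**Figure D3:**
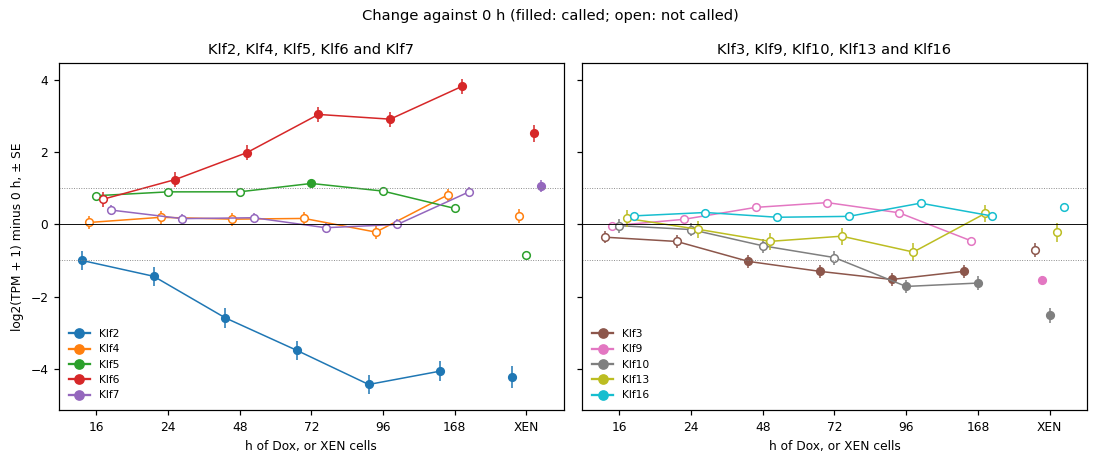
Change of each member against 0 h on the log2(TPM + 1) scale, with its standard error from limma, at 16 to 168 h of Dox and in XEN cells. Filled points were called (adjusted p under 0.05 and a change above 1, dotted lines) and open points were not; Klf2 reaches -4.43 at 96 h, Klf6 3.82 at 168 h, and Klf16 stays within 0.58 of 0 h.

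With 10 members the counts of calls are coarse, and they are set here beside the share of all genes called. The share of all 15057 tested genes called in either direction was 2.77% at 16 h, where 1 of 10 members was called, lower, and 5.68% at 24 h, where 1 was higher and 1 lower. At 48 h it was 16.4%, with 1 member higher and 2 lower. It was 26.2% at 72 h, with 2 higher and 2 lower, 29.5% at 96 h, with 1 higher and 3 lower, and 39.1% at 168 h, with 1 higher and 3 lower. The median change of the 10 members at 168 h was 0.26, beside 0.09 over all tested genes. All these comparisons share the 0 h libraries.

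The steps between neighbouring times place most of the called changes of the members after 24 h. From 16 to 24 h none of the 10 was called by limma, with 0.352% of all tested genes called, and 1 of 10 had an unadjusted p under 0.05, Klf6 (0.54, interval from 0.10 to 0.98, adjusted p = 0.216). From 24 to 48 h Klf2 was called, lower (-1.15 ± 0.27, adjusted p = 0.00245), with 5.56% of all genes called, and it fell short at -0.94 without replicate 3 of 24 h. From 48 to 72 h Klf6 was called, higher, with 3.33% of all, whereas Klf2 was called in its place, at -1.11 without replicate 1 and -1.08 without replicate 2 of 72 h. From 72 to 96 h none of the 10 was called by limma, with 1.71% of all, and 6 of 10 had an unadjusted p under 0.05, among them Klf2 (-0.94 ± 0.27, adjusted p = 0.0251) and Klf10 (-0.80 ± 0.19, adjusted p = 0.0109). Without replicate 3 of 72 h both were called in that step, at -1.33 and -1.05, and without replicate 3 of 96 h Klf2 was called, at -1.14. From 96 to 168 h Klf4 and Klf13 were called, higher, with 7.67% of all.

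In XEN cells 5 of 10 members were called against 0 h, beside 37.6% of all tested genes. Klf6 and Klf7 were higher, and Klf2, Klf9 and Klf10 were lower. Against 168 h of Dox 3 of 10 were called, all lower, beside 13.9% of all: Klf5, Klf6 and Klf9. All tested genes had a median of -0.14 in that comparison, and of -0.02 after median-of-ratios rescaling, which left Klf5 at -1.13 and Klf6 at -1.12 and took Klf9 to -0.92, under the minimum. The difference of Klf2 between XEN cells and 168 h was not called (-0.16, interval from -0.79 to 0.47), nor was that of Klf7 (0.16, interval from -0.16 to 0.49), whose libraries did not overlap. The 2 XEN libraries lay above those of 168 h for Klf3 (0.59 ± 0.19, adjusted p = 0.0155).

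Other genes of the family followed no single course. Of 16 further KLF and SP genes 11 were tested, and at 168 h 4 were higher, 3 lower and 4 not called, with a median of 0.10 beside 0.09 over all tested genes. Higher were Klf8 (9.65 to 33.2 TPM, 1.70), Klf11 (11.8 to 26.9 TPM, 1.12), Sp6 (3.23 to 14.3 TPM, 1.73) and Sp8 (0.0947 to 4.66 TPM, 2.31). Lower were Klf12 (2.48 to 0.349 TPM, -1.36), Klf15 (6.71 to 1.02 TPM, -1.95) and Sp5, which was listed at 0 in all 3 libraries of 168 h. The broadly expressed Sp1 and Sp3 were at 48.5 and 46.7 TPM at 0 h and 44.7 and 50.1 TPM at 168 h and were not called. In XEN cells Sp8 was higher and Klf12, Klf15 and Sp5 were lower.

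Among the corepressor genes of KLF3 and the KLF9 group, Sap30, Ctbp2 and Sin3a were lower at 168 h, whereas Ctbp1 and Sin3b were not. Of 12 partners and regulators of KLF proteins none was higher and 4 were lower at 168 h. This is no larger a share than the 39.1% of all tested genes called. The median of the 12 was -0.50 beside 0.09 over all. Sap30, a subunit of the SIN3 complex, went from 128 ± 7.07 to 5.11 ± 0.690 TPM (-4.41 ± 0.12, adjusted p = 2.73e-16). Ctbp2 went from 225 ± 5.96 to 56.8 ± 5.04 TPM (-1.97 ± 0.09), and Sin3a from 89.2 to 38.9 TPM (-1.18 ± 0.13). Kat2b, an acetyltransferase, went from 15.9 to 6.59 TPM (-1.19 ± 0.21). Their paralogs Ctbp1 and Sin3b were at 55.3 and 74.8 TPM at 0 h and at 79.4 and 116 TPM at 168 h, differences under the minimum of 1. In XEN cells 6 of the 12 were lower and Ctbp1 was higher (1.15 ± 0.11, adjusted p = 3.12e-08).

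Upstream of Klf4, the receptor and kinase genes of the LIF pathway rose by 168 h, while 2 known STAT3 targets fell. Of 10 LIF, STAT3 and MEK/ERK genes 4 were higher and 2 lower at 168 h, with a median of 0.61 beside 0.09 over all tested genes, of which 39.1% were called. Lifr, the LIF receptor, went from 36.9 ± 5.02 to 262 ± 48.2 TPM (2.79 ± 0.24, adjusted p = 2.30e-09), and Il6st, Jak1 and Stat3 rose by 1.33, 1.03 and 1.26. Jak1 thus lay close to the minimum of 1. Median-of-ratios rescaling moved the median of all tested genes at 168 h from 0.09 to -0.05. Single genes of the lists were not read after rescaling. The STAT3 targets Pim1 and Pim3 were lower (-2.72 and -1.07), and Socs3, another, spread widely, at 79.7 ± 7.19 TPM at 0 h and 69.8 ± 57.0 TPM at 168 h.

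The known ES targets of KLF2, KLF4 or KLF5 mostly fell by 168 h. Klf2 was then lower as well (-4.06), while Klf4 and Klf5 were above their level of 0 h. Nanog and Esrrb are also among the 6 ES markers used to check the labels. Whether KLF proteins act on these genes here was not tested. Of 9 such genes 1 was higher and 6 were lower at 168 h, with a median of -3.56 beside 0.09 over all tested genes, of which 39.1% were called. Nanog went from 281 ± 15.3 to 1.73 ± 0.251 TPM (-6.70 ± 0.22), Esrrb from 253 ± 4.44 to 1.62 ± 1.28 TPM (-6.71 ± 0.29) and Tfcp2l1 from 73.6 to 2.58 TPM (-4.40 ± 0.27). Lefty1, Tcl1 and Cdh1, the gene of E-cadherin, fell by 3.56, 5.20 and 3.21. Cdkn1a, the gene of the cell cycle inhibitor p21, rose from 40.9 ± 3.68 to 341 ± 78.8 TPM (3.01 ± 0.18, adjusted p = 1.93e-11). Tbx3 and Fbxo15 were not called at 168 h. Earlier the list was mixed, with 1 gene higher and 1 lower at 16 h and 1 higher and 3 lower at 48 h. Tbx3 was the higher one, by 1.37, 1.51 and 1.12 at 16, 24 and 48 h, and Tcl1 was 0.72, 0.87 and 0.81 above 0 h then, under the minimum.

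To ask whether Oct4 acts on the members during induction, their levels were compared between siOct4 and siCTL after 48 h of Dox. The target was reduced in all 6 pairs: Pou5f1 was lower by 1.52 on average, with differences from -1.74 to -1.34 (two-sided exact permutation p = 0.00216, the smallest that 6 against 6 libraries can give). Pou5f1 stayed at 331 ± 44.4 TPM in siOct4, against 957 ± 184 TPM in siCTL (SD, n = 6). None of the 6 members present was called by limma, where 2.67% of the 6264 tested genes were, and 1 of 6 had an unadjusted p under 0.05. It was Klf5, whose call depended on how the libraries were handled.

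Klf5 was at 207, 203, 117, 345, 276 and 227 TPM in siCTL replicates 1 to 6 and at 151, 106, 82.2, 121, 145 and 129 TPM in siOct4 replicates 1 to 6. Every siOct4 library was below its siCTL partner, with differences from -1.51 to -0.46, and the groups overlapped only through replicate 3 of siCTL. The mean difference was -0.86 ± 0.23 (SE), with an interval from -1.34 to -0.37, an adjusted p of 0.0629 in limma and a two-sided exact permutation p of 0.0108. The replicate numbers paired the libraries in this table, and the paired exact sign-flip p was 0.0312, the smallest that 6 pairs can give. With the replicate block the limma adjusted p was 0.00292 and Klf5 was called. It was also called without replicate 3 of siCTL (-1.03 ± 0.18, adjusted p = 0.00606). Replicate 4 of siCTL, where 47.3% of all tested genes were highest, held the highest Klf5 level, and without it the difference was -0.72 ± 0.21 (adjusted p = 0.116).

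Gene length and cell type markers differed between these libraries. The slope of the log2 level on gene length was -0.232 per doubling of length in replicate 3 of siCTL, -0.147 in replicate 3 of siOct4 and 0.164 in replicate 4 of siCTL. With this trend removed the Klf5 difference was -0.71 ± 0.13 (adjusted p = 0.00369). Of 10 fibroblast markers 5 were in the table, and their sum ran from 26.1 to 210 TPM in siCTL and from 27.8 to 213 TPM in siOct4. For the trophectoderm, which also uses KLF5, 3 of 5 markers were present, with sums from 10.1 to 33.9 TPM in siCTL and from 13.4 to 63.5 TPM in siOct4, none of them at 0. The markers did not move together. Mean Tfap2c (11.0 and 25.7 TPM in siCTL and siOct4) and Cdx2 (0.969 and 2.30 TPM) were higher in siOct4. Mean Eomes was lower (9.44 and 6.19 TPM). Tfap2c was also at 38.3 TPM in the ES cells at 0 h. Of 8 PrE and XEN markers, 7 had a lower mean in siOct4 and Sox17 did not, among them Dab2 (883 and 448 TPM), Gata4 (249 and 162 TPM) and Pdgfra (201 and 122 TPM in siCTL and siOct4), and their sum ran from 2327 to 6395 TPM in siCTL and from 1529 to 3258 TPM in siOct4. The sum of the 6 ES markers, the targeted Pou5f1 among them, ran from 902 to 1464 TPM in siCTL and from 350 to 574 TPM in siOct4. The part of these in the Klf5 difference was not tested.

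For the other 5 members no difference was shown, and the intervals were wide. Klf2 had a median of 6.27 TPM in siCTL (2.97 to 20.2) and 5.15 TPM in siOct4 (2.45 to 11.6), a difference of -0.39 with an interval from -1.33 to 0.55 (exact permutation p = 0.455), and was lower in 5 of 6 pairs. Klf3 had medians of 27.9 and 18.8 TPM, a difference of -0.58 with an interval from -1.50 to 0.33 (exact permutation p = 0.284), and was lower in 4 of 6 pairs. The differences of Klf6, Klf7 and Klf10 were 0.20, 0.20 and -0.05, with exact permutation p of 0.643, 0.574 and 0.920. The interval of Klf10 ran from -1.05 to 0.95. These intervals and permutation tests leave the pairs out. The paired exact sign-flip p was 0.0938 for Klf2, 0.125 for Klf3, 0.344 for Klf6, 0.406 for Klf7 and 0.875 for Klf10. Klf6 is the member that rose most during Dox. With medians of 144 TPM (46.5 to 224) in siCTL and 180 TPM (76.9 to 216) in siOct4, its groups overlapped almost fully. After the same 48 h of Dox the time course had 28.9 to 38.1 TPM of Klf2, above every siCTL library. Its Klf6 libraries had 60.9 to 67.0 TPM, below all siCTL libraries but replicate 3. For Klf3, Klf5, Klf7 and Klf10 the siCTL libraries lay on both sides of that group. The reason was not tested.

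**Figure D4:**
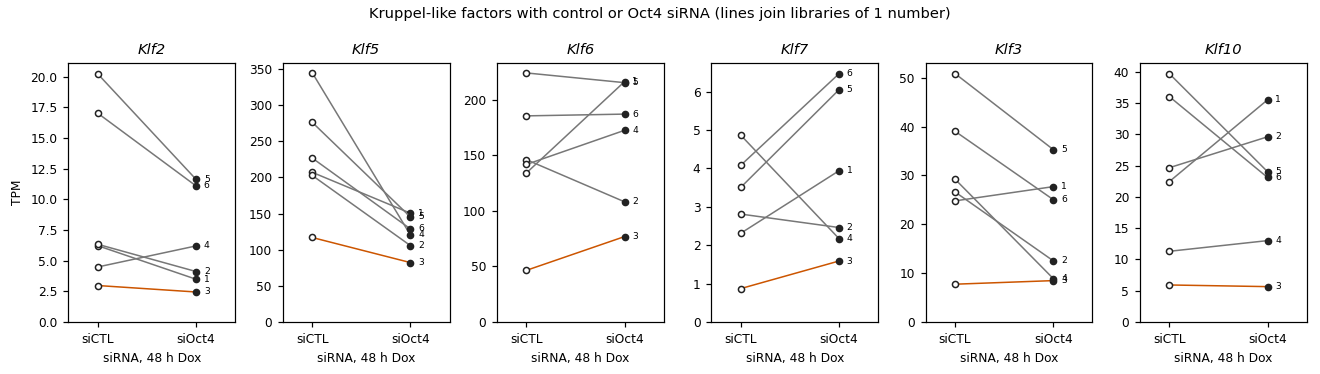
Levels in TPM (linear axes from 0) of the 6 members in the siRNA table, after 48 h of Dox, in 6 siCTL libraries (open) and 6 siOct4 libraries (filled). Lines join libraries of the same replicate number, printed at the right, with replicate 3 in orange; for Klf5 all 6 lines go down, and replicate 3 is the lowest siCTL library in all 6 panels.

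Replicate 3 had the lowest level of all 6 members among the siCTL libraries, and likewise among the siOct4 libraries. Of all tested genes there, 64.3% were lowest in replicate 3 of siCTL and 51.4% in replicate 3 of siOct4. In the induction table replicate 3 of 72 h was lowest of its group for 8 of 10 members, against 50.1% of all tested genes. The 72 h means of Klf2, Klf4, Klf6 and Klf13 carry SDs of 7.42, 33.6, 51.8 and 5.71 TPM.

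The related lists were also read in the siRNA table. Of 7 further KLF and SP genes present, 4 partners and 7 LIF, STAT3 and MEK/ERK genes, none was called, and of 8 ES targets 1 was. It was Tcl1, which was lower in siOct4, at 33.4 ± 9.34 against 101 ± 30.2 TPM (-1.56 ± 0.23, adjusted p = 0.00184). The medians of the 4 lists were -0.26, -0.30, -0.29 and -0.40, beside -0.12 over all 6264 tested genes and -0.22 over the 6 members.

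The genes whose course was most like that of each member were read from Pearson correlations of log2(TPM + 1) over the 23 libraries of the induction table, among 11354 genes of at least 5 TPM in a group. The libraries share the time course, so that many genes with a one-way change correlate. Klf2 was followed most closely by Mex3a (0.986) and Xkr5 (0.986), and 744 genes were above 0.9. For Klf6 they were Fam129b (0.987), Myo1d (0.985) and Nectin2 (0.984), with 1260 genes above 0.9, and for Klf10 Ppfia4 (0.988), Gtpbp10 (0.982) and Bub1b (0.979), with 593. These 3 members followed common courses. Klf3 was most like Chd9 (0.960), Zbed5 (0.948) and Plekhg1 (0.946), with 55 genes above 0.9.

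The courses of the other members, like that of Klf3, were shared by fewer genes than those of Klf2, Klf6 and Klf10. Klf9 was most like Slc44a4 (0.975), Zmynd8 (0.975) and Mep1b (0.970), with 68 genes above 0.9, and Klf5 most like Mtmr7 (0.947), Rab11fip4 (0.942) and Cyba (0.941), with 21. Klf7, with 2 such genes, was most like Tecpr2 (0.903), Fhod3 (0.902) and Fzd2 (0.896). Klf4 and Klf13 had 1 gene each above 0.9, Plac8 (0.906) for Klf4 and Adnp2 (0.918) for Klf13. Klf4 was next most like Soga1 (0.892) and Prkacb (0.875), and Klf13 like Kif3a (0.891) and Dtx3 (0.874). Klf16 varied by 0.58 between its highest and lowest group means and had 0 genes above 0.9, and its most alike genes are not named.

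In GENCODE M21 (mm10) each member is a protein-coding gene on a chromosome of its own, Klf2 at chr8:72319033-72321656, Klf3 at chr5:64803388-64832901, Klf4 at chr4:55527143-55532466, Klf5 at chr14:99298691-99315036 and Klf6 at chr13:5861482-5870394. Klf7 lies at chr1:64029447-64122282, Klf9 at chr19:23141226-23168134, Klf10 at chr15:38291463-38300706, Klf13 at chr7:63886351-63938915 and Klf16 at chr10:80567124-80577321. Klf2, Klf3, Klf5, Klf6 and Klf9 are on the plus strand and the others on the minus strand. The libraries kept the strand and the study counted with a strand setting, and Klf3, Klf7 and Klf13 overlap genes on the opposite strand. The highest level of these in any library, where listed, was 2.09 TPM for Gm20033 beside Klf3, 0.0507 TPM for Gm13748 beside Klf7, and 0.284 TPM for Gm27252 and 0.0305 TPM for E030018B13Rik beside Klf13.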

How the data were processed

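RNA-seq was analysed in 35 libraries, grouped by sample title. The authors prepared stranded polyA libraries, used STAR for alignment to mm10 and RSEM for quantification, left out outliers of a principal component analysis and deposited TPM. Versions of STAR and RSEM and the annotation were not given in the sources used here. The siRNA table holds the genes the authors called responsive, beside mean columns and text classes of their own tests, which were not used here. The unit was known only after the tests were laid out, so limma was run on log values and count tests were not used.

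For 60 repeated symbols the row of highest mean was kept. Genes with a group mean of at least 1 TPM were tested on log2(TPM + 1) with limma 3.58.1 in R 4.3.3 (lmFit, eBayes with trend and robust), over all 23 induction or all 12 siRNA libraries, with Benjamini-Hochberg adjustment over all genes tested. A gene was called at an adjusted p under 0.05 and a change above 1, or above 0.5 for siOct4. The fit was tested on simulated data with 200 changed genes above 5 TPM. It recovered 97% of changes of 2 at 168 h, and 66% of changes of 1 for siOct4. False calls numbered 5 and 3. The simulated noise was independent between libraries, unlike that of the siRNA libraries. Single members of the siRNA table were also tested by two-sided exact permutation over 924 splits and by sign flips over 64 patterns. With 3 libraries a group an exact test cannot go below 0.1, so none was made for the time course. The study's methods describe the replicates as independent experiments.

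Same-numbered siRNA libraries deviated together (correlations from 0.236 to 0.707, 6 of 6 pairs above 0.1), so the titles' numbers were taken as pairs there. Of the 12 libraries 7 deviated most like the library of their own number in the other group. The 10 members and all lists were chosen with earlier results of these data known. Genes named were the members, the 3 genes most alike to each member whose group means ranged over more than 1, and the called genes of the lists, with a few uncalled paralogs and list members named for contrast. One of the genes most alike to Klf2 and 1 gene of a list are not reported here. Alternatives were median-of-ratios rescaling, a pseudocount of 0.1, no filter, a minimum of 5 TPM, the replicate block, only the compared groups and leaving out each library. Averaging of replicates and removal of the gene length trend (GENCODE M21 lengths) were added after seeing the data. Averaging joined replicates 1 and 2 of each time in the time course. In the siRNA libraries it joined 1 with 2, 3 with 4 and 5 with 6.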

Additional observations from a re-analysis of the deposited data

Results flagged for a closer look

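In the 14 sets of at least 4 libraries that were screened for a library far from its group (each member and Pou5f1 in siCTL and in siOct4), 1 was found, where 0.7 would be by chance. It was Klf6 in replicate 3 of siCTL, with a log2(TPM + 1) of 5.57 (46.5 TPM), while the other 5 siCTL libraries lay between 7.08 and 7.81. The gap to the nearest of them was 0.672 of the whole range of the group. The same library was lowest among siCTL libraries for 6 of 6 members and had the steepest fall of level with gene length, with a slope of -0.232. The part of these in the low Klf6 value was not tested.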

How the results depend on the processing

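The numbers of members called against 0 h at 24, 48, 72, 96 and 168 h and in XEN cells, and in XEN cells against 168 h, stayed within 1.5 times under every alternative, and no called change of a member reversed its direction. The cause of the following changes was not tested. At 16 h 0 members were called with like replicates averaged, and 0 to 1 when single libraries were left out. From 24 to 48 h 0 to 1 were called with single libraries left out. From 48 to 72 h 0 were called with like replicates averaged or only the compared groups. From 72 to 96 h 1 was called with a pseudocount of 0.1, and 0 to 2 with single libraries left out. From 96 to 168 h 0 were called with median-of-ratios rescaling, like replicates averaged or the length trend removed (Klf4 0.89, 0.99 and 0.97; Klf13 0.94, 0.998 and 0.89), and 1 to 3 with single libraries left out.

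For siOct4 the member called was Klf5. Median-of-ratios rescaling, the replicate block, removal of the length trend, and both of the last together gave 1 call each. Leaving out single libraries gave 0 to 1. With replicates averaged 1 with 2, 3 with 4 and 5 with 6, Klf5 was not called in limma (-0.91, adjusted p = 0.121). That averaging joined replicates 3 and 4 of siCTL, which were not alike, with slopes on gene length of -0.232 and 0.164. Rescaling moved the median of all genes from -0.12 to 0.01 and the calls from 59 higher and 108 lower to 144 and 153. Genes called numbered 167, and 297 after rescaling, 537 with the replicate block, 357 with the length trend removed, 634 with both and 0 with averaging. In the time course same-numbered libraries deviated together only weakly, with a mean correlation of 0.033 over 77 pairs and -0.016 over other pairs. They ranged from -0.186 to 0.219, with 16 of 77 above 0.1. In each group of 3, replicates 1 and 2 correlated most with each other. The replicate block changed no count of members in the time course. Counts of all genes called moved by over 1.5 times with a pseudocount of 0.1 (16 h 417 to 674, 24 h 855 to 1440, XEN against 168 h 2092 to 3215, and the steps from 16 h 53 to 83, from 24 h 837 to 1483, from 48 h 502 to 1053, from 72 h 257 to 609 and from 96 h 1155 to 2038), with averaging (53 to 6 from 16 h and 257 to 30 from 72 h) and with only the compared groups (257 to 17 from 72 h). Of single members in single comparisons, 500 values kept their side of the thresholds, 25 lost the call and 18 gained one.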
